A study of Rattus norvegicus with 113 samples.

Results

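Cell proliferation genes were followed in the hippocampus and cortex of adult male Sprague-Dawley rats after parasagittal fluid percussion injury (TBI). The set was a list of 39 genes of DNA replication and mitosis, taken by name. Earlier results of these data were known when it was chosen. On the larger of the 2 array designs 36 of the 39 were found among 16581 named genes, and on the smaller design 35 of the 39 among 15637 named genes. Top2a, Mcm5 and Melk were not reached on either design, and Bub1b was not reached on the smaller one. The Bub1b probe is on both designs but was named through the larger one, so it entered comparisons across the designs.

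RNA from 113 tissue samples was hybridised in 1 colour to Agilent whole-genome rat arrays. Naive rats had no anesthesia and no handling, sham rats had the same surgery and anesthesia as the injured rats without the fluid pulse, and TBI rats received the pulse, which the labels call moderate and the study's methods call severe. Tissue was taken at 24 hr, 2 weeks, 3 months, 6 months and 12 months, from the hippocampus or from a small piece of cortex near the injury site. Each group held 4 arrays, except in the hippocampus at 24 hr, where there were 3 TBI arrays, 2 sham arrays and no naive array. The 17 arrays of the hippocampus at 24 hr and at 3 months were of the smaller design and the other 96 of the larger one. Arrays were labelled as separate replicates, and all rats of a group shared strain, treatment and interval. The study's methods describe the hippocampus and cortex of 4 rats per group and interval, so that the tissues may share rats. Comparisons between tissues were fitted without pairing, with the replicate number as a block as an alternative.

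A dividing cell copies its DNA and then separates the copies. Cyclins bind and switch on cyclin-dependent kinases, which start replication and then mitosis. Replication needs a helicase built of Mcm proteins, the Pcna clamp and a supply of deoxynucleotides, whereas mitosis needs a spindle, checkpoint kinases, an anaphase ubiquitin ligase and a machinery that splits the cell. Most neurons of the adult brain do not divide, and neural progenitors of the dentate gyrus, oligodendrocyte precursors, and microglia and astrocytes after injury are known to do so. A pair of elements recurs before the starts of such genes, a CHR element bound by the DREAM and MuvB complexes and the CCAAT box bound by NF-Y, and E2F factors bind sites of genes used in replication.

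Sequences before the gene starts are shown first, and their part in the differences at 24 hr was not tested. RefSeq promoter windows of 300 bases, 250 before and 50 after the annotated start in assembly GRCr8, existed for 31 of the 39 genes among 33469 genes. The letters TTTGAA (the CHR core) were found on either strand in 15 of the 31 windows (48.4%) against 18.3% of all windows, and CCAAT in 22 (71.0%) against 37.5%. Both were present in 13 windows (41.9%) against 7.41%, and 17 windows (54.8%) held CCAAT at least 2 times, against 11.2%. An E2F-like sequence was found in 5 windows (16.1%) against 2.90%. Of its spellings, TTTGGCGC stood in Mcm5, Mcm6 and Tyms (9.68% against 0.493%), TTTCCCGC in Mcm3 and Mcm5 (6.45% against 0.974%) and TTCCCGCC in Mcm3 and Kif23 (6.45% against 1.91%), where the latter pair of spellings can overlap. A match is a description of letters and not of a bound site.

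The 250 bases before the start are printed 5′ to 3′ on the gene's strand for 4 genes, with the CHR core, the CCAAT box in either orientation and the E2F-like letters in capitals. Cdk1 (chr20:19265043-19265292, plus strand) and Mki67 (chr1:199952594-199952843, minus strand) had among the largest differences in the hippocampus. Mcm6 (chr13:42404353-42404602, minus strand) stands for replication. Ccne1 (chr1:99927910-99928159, minus strand), which held none of these letters, stands for members that did not pass the test in any comparison of TBI with sham. Lack of the letters did not mark such members. The windows of Tk1, Bub1 and Trip13 held none either, and these genes rose in TBI against sham. Tk1 and Bub1 did so in the hippocampus and Trip13 in the cortex. Aurka, also without the letters, did not pass the test.
Cdk1: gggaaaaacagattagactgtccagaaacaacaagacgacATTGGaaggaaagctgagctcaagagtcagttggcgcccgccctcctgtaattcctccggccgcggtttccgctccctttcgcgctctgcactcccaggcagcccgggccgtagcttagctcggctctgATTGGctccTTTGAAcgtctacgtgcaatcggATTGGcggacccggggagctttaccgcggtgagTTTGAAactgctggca
Mki67: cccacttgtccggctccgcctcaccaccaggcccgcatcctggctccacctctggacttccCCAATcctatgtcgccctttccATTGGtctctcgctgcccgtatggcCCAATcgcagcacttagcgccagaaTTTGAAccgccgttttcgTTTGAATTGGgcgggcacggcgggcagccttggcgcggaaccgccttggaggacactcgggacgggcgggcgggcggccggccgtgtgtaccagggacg
Mcm6: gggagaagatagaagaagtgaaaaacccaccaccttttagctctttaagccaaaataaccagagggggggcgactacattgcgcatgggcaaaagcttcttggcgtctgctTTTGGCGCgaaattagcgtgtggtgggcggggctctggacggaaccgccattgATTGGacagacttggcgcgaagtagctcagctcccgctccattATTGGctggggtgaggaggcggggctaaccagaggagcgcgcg
Ccne1: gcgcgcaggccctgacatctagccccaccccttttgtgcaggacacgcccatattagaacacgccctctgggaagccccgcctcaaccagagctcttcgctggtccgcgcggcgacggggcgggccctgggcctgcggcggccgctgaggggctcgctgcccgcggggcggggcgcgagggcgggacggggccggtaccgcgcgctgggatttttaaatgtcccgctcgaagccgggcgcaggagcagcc
The Cdk1 window held 2 CHR cores and 3 CCAAT boxes, that of Mki67 2 and 4, of which a pair overlaps, and that of Mcm6 2 CCAAT boxes and 1 TTTGGCGC.

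Values below are levels of 1 probe, log2 of the processed signal minus the array's median, so that 0 is the median probe of an array, and differences are on the same log2 scale. A probe entered a test if 1 of the groups compared had it well above background on all its arrays, and was called where the limma adjusted p over all probes tested was under 0.05. The study's own criterion, a fold of at least 1.4 at an unadjusted p of at most 0.05, is given beside it. The share of probes above background per array ranged from 41.2% to 93.0%. The array furthest from its group was the cortex sham array 3 at 2 weeks, with 93.0% of probes above background and a summed member signal of 32.7 times the array median, against at most 131.5 on the other arrays of its group. At some intervals TBI arrays were on 1 slide and sham arrays on another, so that slide and group cannot be told apart. These were 24 hr, where the scan day differed too, and 6 months for the hippocampus, and 24 hr, 2 weeks and 6 months for the cortex. In naive rats, of 6 hippocampal identity genes tested 4, 2 and 4 were higher in the hippocampus than in the cortex at 2 weeks, 6 months and 12 months, and none was lower. Of 6 cortical identity genes tested, 2, 4 and 4 were lower in the hippocampus, with 1, 0 and 2 higher.

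Some of the genes were visible in uninjured brain and some were at the edge of detection. On the larger design Ccnd1, Ccne1, Mcm2, Pcna, Rrm2 and Tk1 were above background on all 96 arrays, while 11 members were so on fewer than 48. Mki67, which coats mitotic chromosomes and is the usual marker of cycling cells, was above background on 3 of 20 naive cortex arrays and 5 of 12 naive hippocampus arrays, and Cdk1, the kinase of mitotic entry, on 17 of 20 and 9 of 12. Tyms, Bub1b and Cdca8 were above background on 0 of 20 naive cortex arrays. For 34 of the 36 members on the larger design the group with the highest mean was cortex TBI at 24 hr. The exceptions were Ccne1, the cyclin of S phase entry, in cortex TBI at 12 months, and Aurka, a centrosome kinase, in cortex TBI at 2 weeks. On the smaller design hippocampus TBI at 24 hr had the highest mean for 33 of 35 members, with Ccne1 and Ccnb2 highest in hippocampus sham at 3 months. Ccnb2 was above background on 1 of the 17 arrays of that design, so its order there was not measured.

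**Figure D1:**
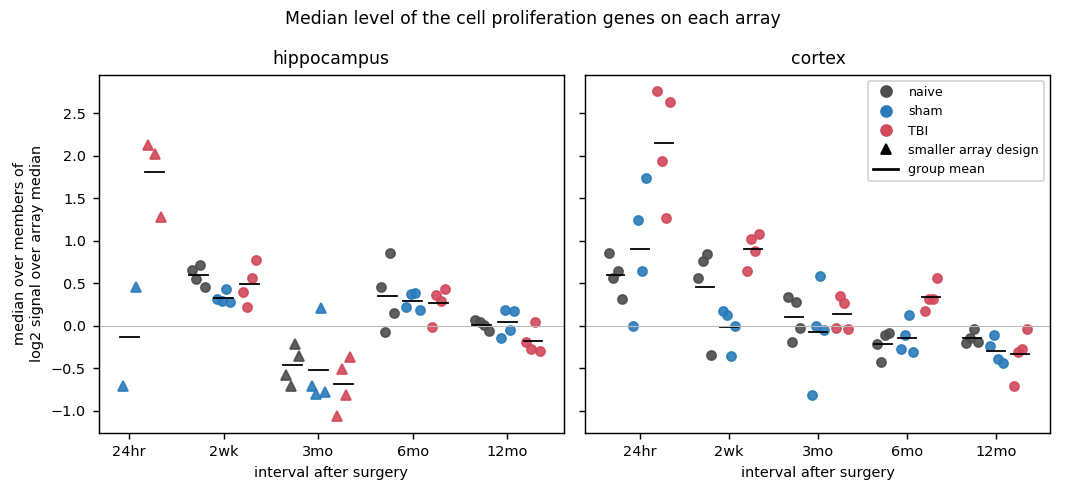
Median level over the members on each array (log2 of signal over the array median) by interval for naive, sham and TBI rats in both tissues, with triangles for the smaller design, which is on another probe set, and a line at each group's mean. Of the groups of each tissue, TBI at 24 hr had the highest mean.

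In the hippocampus 24 hr after injury, genes of replication, mitotic entry, anaphase and cytokinesis were higher in TBI than in sham rats. Of 27 members tested, 22 rose and 0 fell, while 5.94% of all probes tested rose and 8.28% fell. The differences of those that rose ran from 1.00 (Pcna and Birc5, 2.00-fold) to 3.20 (Cdk1, 9.21-fold). By the study's criterion 25 members were higher, against 11.2% of all probes in that direction. Among the 18 members above background on all 5 arrays, which could not have entered the test through the injured group alone, 14 rose, against 5.55% of such probes. The median difference was 1.85 over the 27 members and -0.02 over all probes. The 3 TBI arrays lay above both sham arrays, without overlap, for 25 of the 27, against 23.1% of all probes. In bulk tissue more cells of a type and more RNA per cell cannot be told apart, and neither can injury and slide here.

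**Figure D2:**
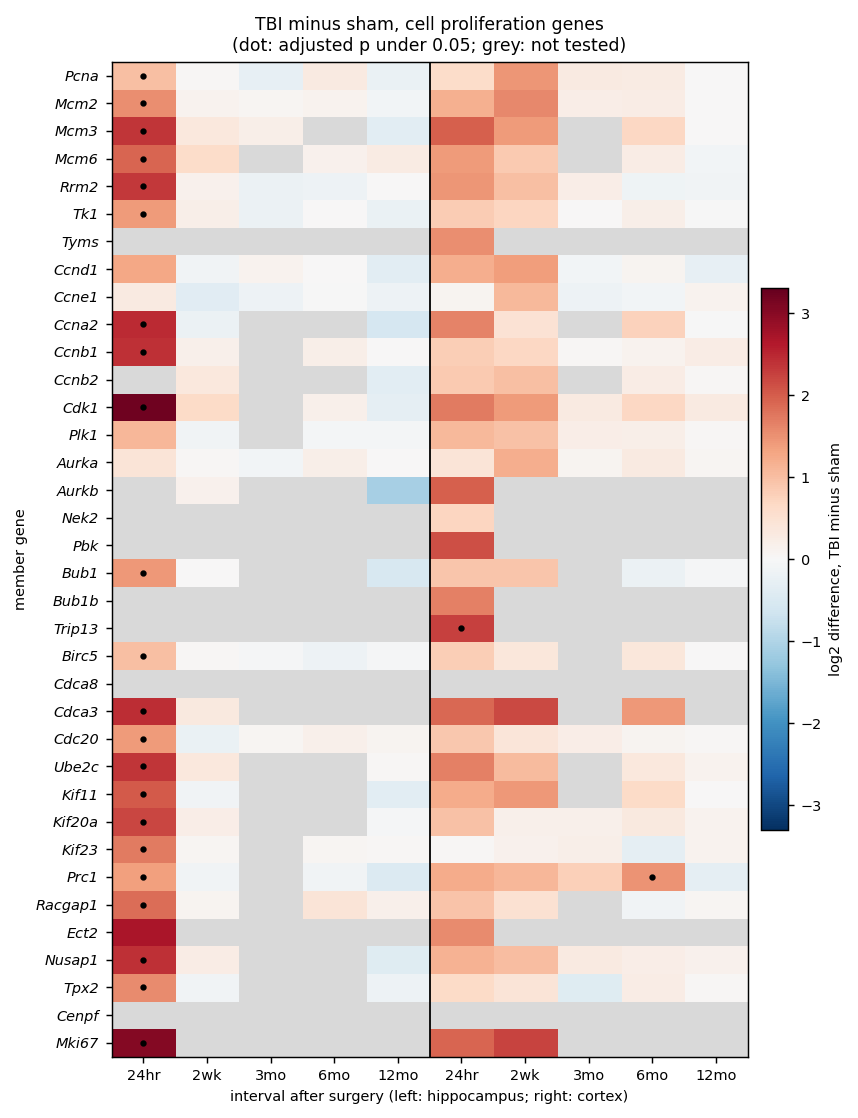
Difference TBI minus sham (log2, colour) of each of the 36 members at 5 intervals in the hippocampus (left) and cortex (right), with a dot where the adjusted p was under 0.05 and grey where the gene was not tested. At 24 hr the hippocampal column has 22 dots and the cortical one 1, and at later intervals the only dot is that of Prc1 in the cortex at 6 months.

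All 6 replication and nucleotide genes tested rose. Rrm2, the small subunit of ribonucleotide reductase, was at 5.14, 5.10 and 4.17 on the TBI arrays and at 1.84 and 3.09 on the sham arrays, a difference of 2.33 (SE 0.44, limma adjusted p = 0.0214). Mcm3, a helicase subunit, was at 4.16, 3.68 and 3.51 against 0.37 and 2.47, a difference of 2.36 (SE 0.58, adjusted p = 0.044). Pcna, the sliding clamp of DNA polymerase, was at 6.00, 5.82 and 5.69 against 5.08 and 4.59, a difference of 1.00 (SE 0.20, adjusted p = 0.023). In all 3 genes the groups did not overlap, and for Mcm3 and Rrm2 the sham arrays lay further apart than the TBI arrays. Tk1, which salvages thymidine, rose by 1.39 and Mcm2 by 1.54. Mcm6, another helicase subunit, was above background on the 3 TBI arrays (1.58, 1.09 and 0.71) and on neither sham array (-1.28 and -0.33), so that its level was at least 3.47-fold higher (adjusted p = 0.0192). Tyms, thymidylate synthase, was not tested.

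Of the cyclins and their kinase, Cdk1, Ccna2 and Ccnb1 were called, and Ccnd1 and Ccne1 did not pass the test. Cdk1 was at 3.99, 3.95 and 3.05 in TBI and at -0.57 and 1.49 in sham rats, a difference of 3.20 (SE 0.61, adjusted p = 0.0209). Ccna2, the cyclin of S phase and G2, was at 2.54, 2.37 and 1.86 against -0.71 (not above background) and 0.28, a difference of 2.47 (SE 0.34, adjusted p = 0.00819). Ccnb1, the mitotic cyclin, was at 1.88, 1.85 and 0.68 and not above background on either sham array (-0.86 and -1.01), so that it was at least 5.29-fold higher (adjusted p = 0.0124). No TBI array overlapped a sham array for these 3 genes. Ccnd1, the growth-responsive G1 cyclin, was at 3.65, 3.23 and 2.89 against 1.46 and 2.49 (1.28, SE 0.35, adjusted p = 0.060). Its groups did not overlap either, and it met the study's criterion. Ccne1 was at 3.86, 3.61 and 3.54 against 3.65 and 3.12, and the groups overlapped (0.29, SE 0.20, adjusted p = 0.379). Ccnb2 was not tested.

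Of the mitotic kinases and checkpoint genes 3 were tested and 1 rose. Bub1, a kinase of the spindle checkpoint, was at 2.02, 2.02 and 1.19 in TBI and at -0.09 and 0.72 in sham rats, without overlap (1.43, SE 0.34, adjusted p = 0.042). Plk1, the polo-like kinase of mitotic entry, was at 2.17, 2.09 and 1.19 against 0.53 and 0.92 (1.09, SE 0.32, adjusted p = 0.071), with no overlap. Aurka was at 2.07, 1.90 and 1.28 against 1.41 and 1.26, and the groups overlapped (0.42, adjusted p = 0.303). Aurkb, Nek2, Pbk and Trip13 did not pass the background filter. The 4 anaphase and passenger genes tested rose. They were Ube2c, the ubiquitin-conjugating enzyme of the anaphase-promoting complex (2.76, 2.79 and 1.28 against -0.51, not above background, and 0.34, a difference of 2.36 with adjusted p = 0.030), Cdc20, its activator (1.41), Birc5, survivin of the passenger complex (1.00), and Cdca3 (2.43). Cdca8, borealin of the same passenger complex, was not tested.

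Of 8 spindle and cytokinesis genes tested 7 rose. Kif23, the motor of the centralspindlin complex that builds the midzone of the dividing cell, was at 1.32, 1.22 and 0.94 in TBI against -0.79 (not above background) and -0.32 in sham rats, a difference of 1.71 (SE 0.20, adjusted p = 0.00598). Its partner Racgap1 was at 1.67, 1.57 and 0.95 against -0.57 and -0.34, a difference of 1.85 (SE 0.24, adjusted p = 0.00756). These had the smallest adjusted p of the members, with sham arrays closer to each other than for most. Nusap1, which bundles spindle microtubules, rose by 2.42, Kif20a, a cytokinesis motor, by 2.20, Kif11, the motor that separates spindle poles, by 2.01, and Prc1, which cross-links midzone microtubules, by 1.35. Tpx2, an activator of Aurora A, was above background on no sham array and at least 2.04-fold higher (adjusted p = 0.0267). Ect2, the exchange factor that starts the contractile ring, was at 1.70, 1.71 and 1.05 against -2.49 (not above background) and 0.09 (2.69, SE 0.70, adjusted p = 0.0517). Mki67 was at 3.26, 3.15 and 2.29 against -1.06 (not above background) and 0.79, a difference of 3.03 (SE 0.56, adjusted p = 0.020).

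The arrays of a group differed in the same order for nearly all members. Among 35 members, TBI array 3 was the lowest of its group for 34 and sham array 1 the lower of the pair for 30. Between 27 and 32 of the 35 stood above background on the TBI arrays, against 18 and 24 on the sham arrays. Without sham array 1 only 3 members rose (Kif23, Pcna and Ccna2), against 1.34% of all probes, and without sham array 2 there were 17 (2.11%). Either leaves 1 sham array, which is assumed to vary like the TBI group. Without TBI array 1 there were 6 (3.00%), without TBI array 2 there were 7 (2.55%) and without TBI array 3 there were 22 (7.24%). With no filter on dim probes 0 members and 0 probes of 30367 rose.

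**Figure D3:**
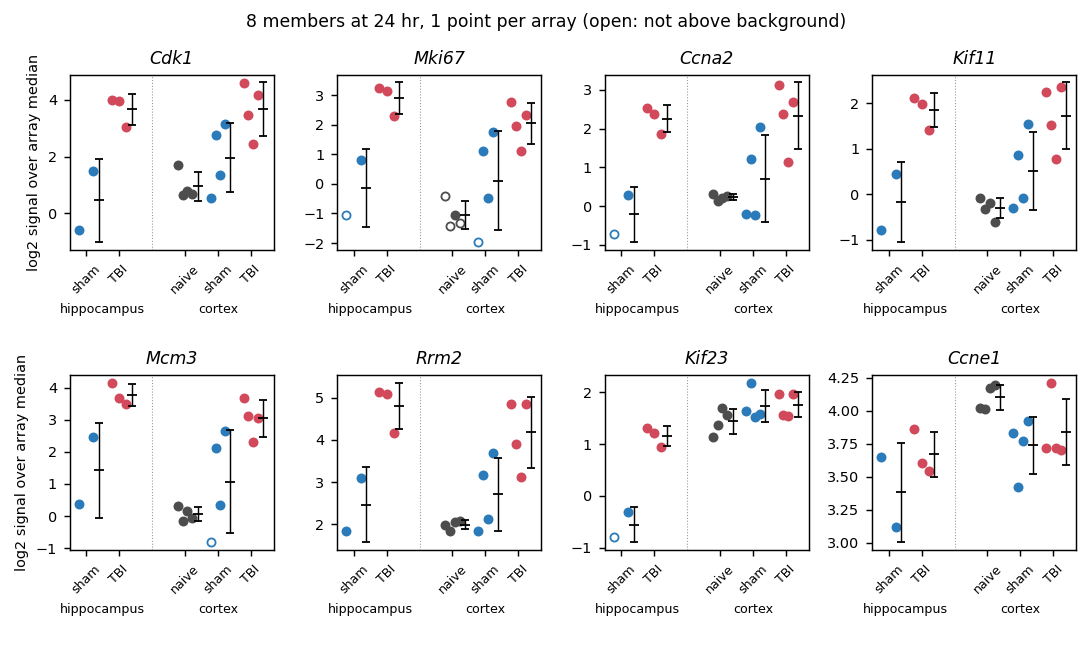
Level (log2 of signal over the array median) of 8 members on each array at 24 hr in both tissues, with open points not above background and a bar for the mean and SD of each group. In the hippocampus TBI and sham arrays did not overlap except for Ccne1, and in the cortex sham arrays 2 and 4 reached into or near the TBI range.

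In the cortex near the injury site at 24 hr the members were higher in TBI rats by most differences, but sham arrays reached into the TBI range. Of 34 members tested 1 rose and 0 fell, where 0.286% of all probes were called in either direction. By the study's criterion 29 of the 34 were higher, against 9.08% of all probes, and 30 had an unadjusted p under 0.05, against 20.9% of all probes. Of the 24 above background on all 8 arrays, 20 met the criterion, against 7.58% of such probes. The median difference was 1.19, and 0.12 over all probes, which other scalings of the arrays brought to between -0.02 and 0.01. By role the criterion was met by 7 of 7 replication and nucleotide genes, 5 of 6 cyclins and Cdk1, 6 of 8 kinases and checkpoint genes, 4 of 4 anaphase and passenger genes, 6 of 8 spindle and cytokinesis genes, and Mki67. Injury and slide cannot be told apart here either.

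Trip13, an ATPase that disassembles checkpoint complexes, rose, and it entered the test through the TBI group alone. It was at 0.02, -0.45, -1.49 and -0.20 on the TBI arrays and not above background on any sham array (-2.86, -2.62, -2.89 and -2.79), at least 1.29-fold higher with a limma adjusted p of 0.0386. The call was lost under 75th percentile and quantile scaling, with the authors' scaled values and with the replicate number as a block. Cdk1 was at 4.60, 3.48, 2.45 and 4.16 in TBI and at 0.56, 2.78, 1.35 and 3.16 in sham rats (1.71, SE 0.58, adjusted p = 0.127), and the groups overlapped. Mki67 was at 2.78, 1.95, 1.12 and 2.33 against -1.95 (not above background), 1.11, -0.47 and 1.76 (1.93, SE 0.66, adjusted p = 0.132). Here too sham array 4 lay above TBI array 3. Sham arrays 2 and 4 both lay above arrays 1 and 3 for 27 of 36 members, and TBI array 3 was the lowest of its group for 34 of 36. Tyms, Plk1, Trip13 and Tpx2 were the 4 of 34 members whose groups did not overlap, against 11.1% of all probes. Plk1 was at 1.84, 1.13, 0.99 and 1.83 against -0.09, 0.50, 0.27 and 0.77 (1.08, SE 0.22, adjusted p = 0.0612).

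A pair of members stood near 0. Kif23 was at 1.96, 1.56, 1.55 and 1.97 in TBI and at 1.64, 2.18, 1.52 and 1.58 in sham rats (0.03, SE 0.18, adjusted p = 0.947), and Ccne1 was at 3.72, 4.21, 3.72 and 3.70 against 3.83, 3.42, 3.77 and 3.92 (0.10). In both the groups overlapped. Without TBI array 3, 15 members rose, against 4.19% of all probes, among them Trip13 (adjusted p = 0.0107) and Plk1 (1.23, adjusted p = 0.0296), with Cdk1 at 2.12 (adjusted p = 0.0562) and Mki67 at 2.24 (adjusted p = 0.0841). Without any other single array 0 rose. With normexp background correction 24 rose, against 18.8% of all probes, and with no filter 12, against 3.63%.

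Against naive rats of that interval most members rose in the injured cortex. Of 34 members 25 rose and 0 fell, against 6.35% of all probes called in that direction. Of the 25 members above background on all 8 arrays 16 rose, against 4.97%. All TBI arrays lay above all naive arrays for 23 of the 34, against 7.40% of all probes. Without TBI array 1, 14 members rose, against 2.31%. The median difference was 1.74, and -0.07 over all probes. Injury and slide cannot be told apart in this comparison. Cdk1 was at 1.72, 0.64, 0.79 and 0.70 in naive rats, below every TBI array (2.71, SE 0.58, adjusted p = 0.0124). Mcm3 was at 0.31, -0.15, 0.17 and -0.07 in naive rats and at 3.69, 3.12, 2.31 and 3.05 in TBI rats (2.98, SE 0.61, adjusted p = 0.0109), and Rrm2 was at 1.99, 1.84, 2.07 and 2.09 against 4.86, 3.90, 3.11 and 4.85 (2.18, SE 0.44, adjusted p = 0.0103). For both genes the 4 naive arrays lay close together and below every TBI array.

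Genes that were above background on no naive cortex array of that interval were among those that rose. They entered the test through the TBI group alone, so that they could hardly be called other than higher. Bub1b, the checkpoint partner of Bub1, was at 1.09, 0.04, -0.80 and 1.01 in TBI rats and above background on no naive array, at least 2.89-fold higher (adjusted p = 0.00794). Pbk, a mitotic kinase, was at 1.71, 0.59, -0.53 and 1.44, at least 3.99-fold higher (adjusted p = 0.0147), and Ect2 at 1.50, 0.62, -0.01 and 1.35, at least 3.77-fold higher (adjusted p = 0.014). In all 3 the naive arrays gave only a bound, and the counts by role that follow include such members. All 7 replication and nucleotide genes tested rose, with 4 of 6 cyclins and Cdk1, 6 of 8 kinases and checkpoint genes, 2 of 4 anaphase and passenger genes, 5 of 8 spindle and cytokinesis genes, and Mki67 (3.10, SE 0.66, adjusted p = 0.0127). Ccne1 (-0.26, adjusted p = 0.227), Ccnd1 (0.87, adjusted p = 0.0647), Kif23 (0.32, adjusted p = 0.228) and Prc1 (1.23, adjusted p = 0.109) were among the 9 that did not pass. The sham arrays were themselves compared with naive. Of 26 members 0 were called, while 0.941% of all probes were called higher and 18.2% lower. An unadjusted p under 0.05 was found for 3 members, against 34.7% of all probes in either direction. The median difference was 0.37 over the members, of which 20 were positive, and -0.20 over all probes. Other scalings of the arrays brought the latter to between -0.03 and -0.02. By the study's criterion Mcm6 (0.86, adjusted p = 0.138) and Bub1 (0.88, adjusted p = 0.0623) were higher, against 2.16% of all probes. Without sham array 1, 3 members rose, Mki67, Bub1 and Mcm3. These 3 comparisons share arrays.

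Other genes of the cell cycle moved with the members in the hippocampus at 24 hr. Their lists too were chosen with earlier results of these data known. Of 58 further replication and division genes, 35 were tested, 18 rose and 0 fell (5.94% and 8.28% of all probes), with a median difference of 0.99, among them Ndc80 of the kinetochore (3.11, adjusted p = 0.0128) and the mitotic motors Kif18b (2.74, adjusted p = 0.0289) and Kif22 (2.66, adjusted p = 0.00272). Of 20 cell cycle inhibitors and damage response genes tested 3 rose, Gadd45a (2.54), Gadd45g (1.88) and Gadd45b (1.27), which are induced by stress and growth arrest. Cdkn1a, an inhibitor of cyclin-dependent kinases, fell (-0.56, adjusted p = 0.0461). Of 10 G1 cyclin, kinase and growth genes tested 3 rose, the immediate early genes Fos (1.31), Myc (1.17) and Jun (0.66). In the cortex 0 of 45 further replication and division genes were called against sham, with 29 meeting the study's criterion (9.08% of all probes) and a median of 0.78, and 29 of the 45 rose against naive (6.35%).

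Markers of several cell types moved beside these genes, and their part in the result was not tested. In the hippocampus at 24 hr 5.94% of all probes tested rose and 8.28% fell. Of 14 microglia and macrophage markers 4 rose, led by Cd14 (3.48, adjusted p = 0.0145). The summed signal of the list ranged from 814 to 1274 times the array median in TBI and from 572 to 656 in sham rats. Of 6 neutrophil markers on the arrays 3 were tested and 2 were above background on no array. S100a9 rose (4.0, adjusted p = 0.0214), with sums of 16.8 to 105 against 4.95 to 5.50. Nes, an intermediate filament of progenitors and reactive astrocytes, rose by 2.74 as the only 1 of 9 neurogenesis markers, Vim and Gfap rose and Gja1 fell among 8 astrocyte markers, Gpr17 fell among 7 oligodendrocyte precursor markers, and Syt1 fell among 7 neuron markers. A blood gene, Hba-a3, rose. Endothelial, meningeal, choroid plexus and T cell markers gave 0 calls, and 3 of 8 T cell markers were above background on no array. Endothelial sums were 54.4 to 71.1 in TBI against 42.3 to 44.2 in sham rats, and meningeal and fibroblast sums 52.0 to 90.3 against 42.0 to 45.9. Neurogenesis sums were 428.9 to 463.1 against 389.6 to 405.1. Sums of hippocampal identity genes were 151.8 to 183.9 against 206.2 to 209.5, neuron sums 498.5 to 542.8 against 570.9 to 602.5 and astrocyte sums 1476 to 1667 against 1737 to 1745. The groups overlapped in none of these sums. They overlapped in those of oligodendrocyte precursor, blood, T cell and cortical identity genes. Of all single probes 23.1% had every TBI array above both sham arrays. Choroid plexus sums ranged from 35.5 to 960 in TBI and from 26.4 to 1159 in sham hippocampi. In the cortex at 24 hr no marker list held a call against sham, where 0.286% of all probes were called. Microglia and macrophage sums there were 962 to 1379 in TBI, 452.7 to 890.8 in sham and 523 to 661 in naive rats. Neutrophil sums there were 15.3 to 168 in TBI and 6.40 to 46.2 in sham rats.

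The difference between TBI and sham was set against that of the other tissue at 24 hr, over probes on both designs. Of 32 members tested 1 differed, where 2.37% of all probes did. Kif23 had the larger difference in the hippocampus by 1.68 (SE 0.30, limma adjusted p = 0.0135). That of Cdk1 was larger there by 1.49 (SE 1.06, adjusted p = 0.545, 95% interval of plus or minus 2.32, which includes 0). The hippocampal arrays were of another design than the cortical ones, and without hippocampal sham array 1 the adjusted p of Kif23 was 0.0776.

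**Figure D4:**
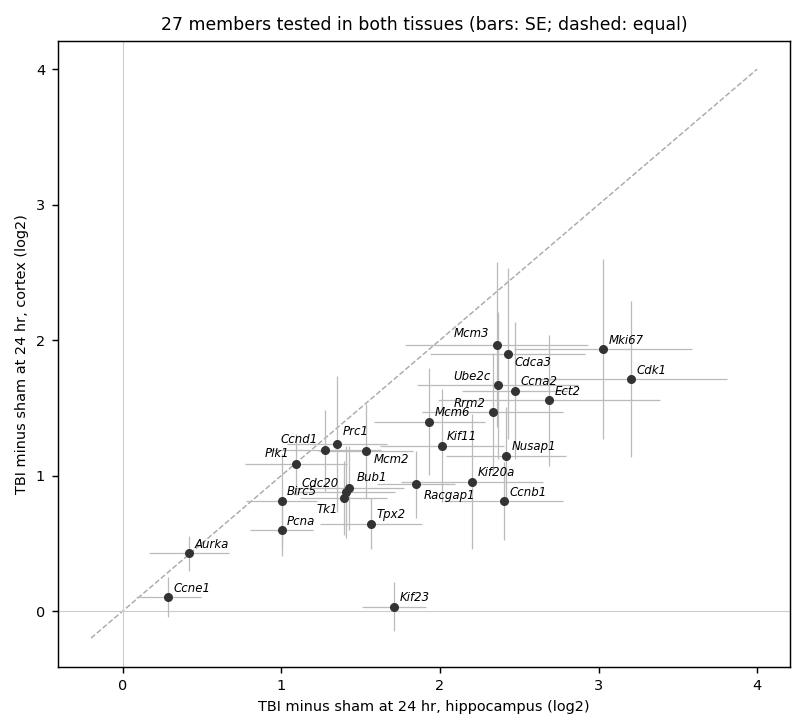
Difference TBI minus sham at 24 hr (log2) in the hippocampus (x axis) against the cortex (y axis) for 27 members, with bars for the SE and a dashed line where both would be equal. Each tissue was read from the brightest probe of its own design. For Birc5, Ccnd1, Mcm2, Racgap1 and Rrm2 the tissues were read from different probes. Kif23 lay near 0 in the cortex and at 1.71 in the hippocampus.

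The hippocampal difference was smaller at 2 weeks than at 24 hr. Sham and TBI arrays shared a slide at 2 weeks but differed in slide and scan day at 24 hr. Interval and slide thus cannot be told apart in this change. Between 24 hr and 2 weeks the TBI minus sham difference fell for 22 of 28 members tested, against 6.84% of all probes in that direction, from -0.96 for Pcna (SE 0.21, adjusted p = 0.016) to -2.87 for Mki67 (SE 0.69, adjusted p = 0.0224). Bub1b was among the 22. Of 11 members above background on every array 8 fell, against 7.03% of such probes. Kif23 changed by -1.65 (adjusted p = 0.00119), Ccna2 by -2.66 (adjusted p = 0.00141) and Cdk1 by -2.57 (adjusted p = 0.0291). The designs differ between these intervals and only shared probes entered. Without hippocampal sham array 1 at 24 hr 8 members fell, and 11 fell without TBI array 1 or without TBI array 2. In the cortex 0 of 34 members were called (0% of all probes), and 4 had an unadjusted p under 0.05, against 2.13%. Without cortex sham array 3 at 2 weeks 0 were called too.

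At 2 weeks itself 0 of 27 members were called in the hippocampus (1.91% of all probes in either direction), with 3 at an unadjusted p under 0.05 (24.4% of all probes). Cdk1 alone met the study's criterion (2.71% of all probes): it was at 1.04, 0.60, 1.79 and 1.54 in TBI and at 0.38, 0.72, 0.85 and 0.49 in sham rats, and the groups overlapped (0.63, SE 0.23, adjusted p = 0.132). It was called without TBI array 2. In the cortex 0 of 27 were called (0.00849% of all probes) and 7 met the study's criterion (4.01%): Nusap1, Ube2c, Mcm3, Cdk1, Kif11, Cdca3 and Mki67. Of 10 members above background on every array 0 met it, and 2.42% of such probes did. Cdk1 was at 1.53, 1.87, 1.83 and 2.06 in TBI and at 0.43, 0.82 (not above background), 0.33 and 0.08 in sham rats (1.41, adjusted p = 0.503). Mki67 was above background on the 4 TBI arrays (-0.70, 0.18, -0.26 and 0.37) and on no sham array. The lowest signal above background was 0.15, 0.93, -2.81 and -0.28 on sham arrays 1 to 4, against -1.27 to -0.76 on the TBI arrays. On sham arrays 1, 2 and 4 levels like some of those in TBI could thus have gone undetected, so that the detection calls do not measure a difference. For Cdk1 all TBI arrays lay above all sham arrays. Sham array 3, which stood apart in its background calls, lay far below its group in bright genes too, as in Pcna (1.37, against 5.64, 5.52 and 5.47). Without it 3 members rose, Cdk1 (1.38, SE 0.39, adjusted p = 0.0305), Cdca3 (adjusted p = 0.0407) and Kif11 (adjusted p = 0.0473), against 2.13% of all probes, where the remaining sham arrays were not above background for Cdca3 and Kif11, and the median difference was 0.52 over members and 0.01 over all probes. Microglia and macrophage sums there were 1354 to 2046 in TBI and 28.1 to 581 in sham rats, where the other 3 sham arrays gave 498.2 to 581.

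At 3, 6 and 12 months few members differed. At 3 months limma called 0 of 10 hippocampal members tested (0.0138% of all probes) and 0 of 16 cortical ones (0%), and 0 had an unadjusted p under 0.05 (5.71% and 4.13% of all probes). At 6 months the hippocampus had 0 of 16 called (0.0134%) and 0 with an unadjusted p under 0.05 (2.84%). In the cortex at 6 months Prc1 rose, as 1 of 26 members tested (0.0805% of all probes). It was at 0.99, 1.47, 1.16 and 0.86 on the TBI arrays, at -0.47, -0.15, -0.27 and -0.53 on the sham arrays, of which the last was not above background, and at -0.56, -0.61, -0.29 and -0.31 on the naive arrays. No TBI array overlapped the other groups. The difference was 1.48 (SE 0.14, adjusted p = 0.00256) against sham and 1.56 (SE 0.14, adjusted p = 0.00143, with 0.249% of all probes called) against naive, and the other Prc1 probe gave 1.67 (SE 0.28, adjusted p = 0.0731). In the hippocampus at 6 months Prc1 differed by -0.13. When the TBI minus sham differences of the tissues were compared at 6 months, 0 of 26 members were called. The smallest limma adjusted p of the members was 0.82, and 0.004% of all probes were called.

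Another 5 members met the study's criterion in the cortex at 6 months, where 3.48% of all probes did. They were Cdca3, Ccna2, Mcm3, Cdk1 and Kif11. Of 14 members above background on every array 0 met it, against 1.80% of such probes. Cdca3, which promotes entry into mitosis, was at -0.91, -0.72, -1.14 and -0.74 in TBI and above background on no sham array (adjusted p = 0.0539), with no fold given since its mean in TBI lay under the mean of the lowest detected signals of the sham arrays, and was called without TBI array 2. Cdk1 was at 0.26, 0.41, 0.32 and 1.18 against -0.46, -0.06, -0.06 and 0.03 (0.68), with the first and last sham values not above background. The groups did not overlap for Cdk1. Of 7 choroid plexus markers 4 were tested and 1 rose, where 0.0805% of all probes were called. They ranged in sum from 135 to 1340 in these TBI cortices and from 17.0 to 78.0 in sham cortices, with Folr1 higher by 4.28 (adjusted p = 0.00256), and microglia and macrophage markers from 568.4 to 992.7 against 439 to 583. Their part in the Prc1 result was not tested, and injury and slide cannot be told apart at this interval.

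**Figure D5:**
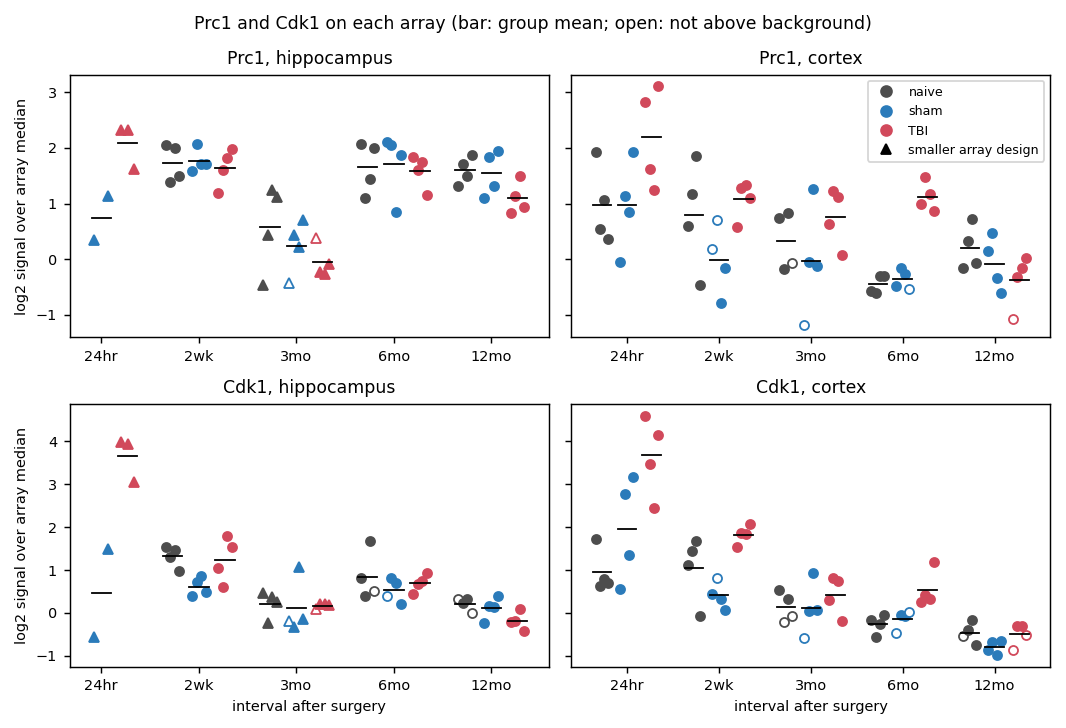
Level (log2 of signal over the array median) of Prc1 and Cdk1 on each array by interval for naive, sham and TBI rats in both tissues. The 4 cortex TBI arrays at 6 months lay between 0.86 and 1.47 for Prc1, above all sham and naive arrays of that interval.

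At 12 months limma called 0 of 26 hippocampal members (0%), of which 7 had an unadjusted p under 0.05 (15.6% of all probes), and 0 of 25 cortical ones (0%), of which 0 had one (6.07%). By the study's criterion Aurkb (-1.09, adjusted p = 0.284) and Ccna2 (-0.57, adjusted p = 0.27) were lower in TBI hippocampus, against 3.26% of all probes. Aurkb, the kinase of the passenger complex, was at -1.49, -0.42, -1.48 and -0.94 in TBI, of which only the second was above background, and at -0.31, 0.91, -1.30 and 0.73 in sham rats, and the groups overlapped. Tk1 was lower in TBI than in naive hippocampus at 12 months (2.29, 2.34, 2.55 and 2.40 against 2.88, 2.75, 2.72 and 3.07, a difference of -0.46, SE 0.10, adjusted p = 0.0393), as 1 of 18 members tested (1.88% of all probes lower), and in sham than in naive hippocampus at 2 weeks (2.53, 2.31, 2.46 and 2.15 against 2.71, 2.86, 2.78 and 2.88, a difference of -0.45, SE 0.09, adjusted p = 0.0107), as 1 of 26 (3.28% lower). The groups did not overlap in either comparison, and the naive arrays lay on another slide in both. At 12 months Tk1 lost its call without naive array 2, 3 or 4 or without TBI array 1, 2 or 4, and under quantile or 75th percentile scaling, where the member called was Aurka, higher in TBI.

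Uninjured tissues were compared next, with Prc1 and Tpx2 among the members called. In naive rats at 2 weeks 1 of 27 members differed between hippocampus and cortex (4.94% of all probes), at 6 months 4 of 19 (16.3%) and at 12 months 8 of 17 (37.7%). These shares lie near those of all probes. At 6 months the 75th percentile gave 10 and quantile normalization 9. Tpx2 was lower in the hippocampus each time, by -1.63 (SE 0.40, adjusted p = 0.00271), -2.31 (adjusted p = 4.5e-13) and -2.45 (adjusted p = 0.000168). At 12 months it was at 1.64, 1.60, 1.28 and 1.44 in the cortex and above background on no hippocampal array, at least 3.15-fold lower. Prc1 was higher in the hippocampus at 6 months (2.07, 1.11, 1.45 and 2.00 against -0.56, -0.61, -0.29 and -0.31, a difference of 2.10, adjusted p = 7.68e-11) and at 12 months (1.32, 1.72, 1.50 and 1.88 against -0.15, 0.33, 0.72 and -0.06, a difference of 1.39, adjusted p = 0.000847). For Prc1 the tissues did not overlap. Limma draws the spread of a probe toward that of all probes. The small adjusted p of Tpx2 and of Prc1 at 6 months thus do not measure the spread of these probes alone. Cdk1 (1.1, adjusted p = 0.00226) and Mcm3 (0.93, adjusted p = 0.0133) were also higher in the hippocampus at 6 months. At 12 months Ccnd1, Tk1 and Pcna were higher there, by 0.50, 0.39 and 0.37, and Kif23 (-0.86), Racgap1 (-0.75) and Rrm2 (-0.51) were lower, a split of 4 higher and 4 lower that quantile normalization turned into 1 and 4.

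These calls moved with single naive arrays, and tissue and slide cannot be told apart. At 2 weeks 0 members were called without hippocampal array 2, and 2 without cortical array 3 or 4. At 6 months there were 10 without hippocampal array 2 and 2 without hippocampal array 3. At 12 months there were 5 without cortical array 2, and 4 without cortical array 4 or hippocampal array 4.

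Levels in naive rats were lower at the last interval than at the first for a few members. In the cortex 2 of 25 members fell between 24 hr and 12 months (0.174% of all probes called), and 9 were lower by the study's criterion (4.35%). Cdk1 was at -0.55, -0.40, -0.16 and -0.76 at 12 months, of which the first was not above background, against 1.72, 0.64, 0.79 and 0.70 at 24 hr (-1.43, adjusted p = 0.035), without overlap. Cdca3 was above background on no array at 12 months and at 0.61, -0.44, -0.33 and -0.57 at 24 hr, at least 1.48-fold lower (adjusted p = 0.0318). In the hippocampus 1 of 26 members fell between 2 weeks and 12 months (0.515%), and 10 were lower by the study's criterion (3.50%). Cdk1 was at 0.32, 0.23, 0.32 and -0.01 against 1.54, 1.30, 1.46 and 0.98 (-1.11, adjusted p = 0.0478). With any 1 array left out 0 or 1 members fell in the cortex and 0 in the hippocampus, and age and slide cannot be told apart.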

How the data were processed

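Per the labels and the study's methods, the authors extracted total RNA, labelled 1 dye and scanned Agilent arrays. They deposited spot intensity values from Feature Extraction 11.5.1.1 (the processed signal, background-subtracted and not normalized between arrays) and a value table scaled per array, used here as an alternative. Samples were grouped by their labels, by tissue, treatment and interval. Here the log2 processed signal was centred on each array's median over non-control probes, spots flagged as outliers were left out where others remained, and probes were tested with limma 3.58.1 (R 4.3.3) and Benjamini-Hochberg adjustment over all probes that passed the background filter. The naive, sham and TBI arrays of a tissue and interval shared 1 fit. Probes were named through unversioned accessions in RefSeq's gene table, 61.4% of 30367 probes on the smaller design and 46.3% of 45598 on the larger, and a gene was read from its brightest probe. A bound ("at least") sets the bright group's mean against, per array of the dim group, the higher of the probe's own value and the lowest signal above background. No member probe was saturated. Members and lists were chosen with earlier results of these data known. Genes were named by the rule that the members, and for each further list its 3 largest calls, are given. Same-numbered arrays deviated together, with every correlation over 0.1, in the cortex at 12 months (0.128 to 0.254) and between naive tissues at 2 weeks (0.12 to 0.295) and 12 months (0.304 to 0.452). The calls were tested on simulated data for TBI against sham at 24 hr, with noise drawn independently for each probe. In the hippocampus 0, 16 and 45 of 50 changes of 0.5, 1 and 2 log2 were recovered. In the cortex 4, 30 and 46 of 50 were. Slide effects and shifts shared by many genes of an array were not simulated. The methods give 4 rats per group, and the number of arrays limits the precision. The normexp alternative used median spot and background signals. Other alternatives are given in the closing section. A result on a further list is not reported here.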

Additional observations from a re-analysis of the deposited data

Results flagged for a closer look

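Of 129 group values examined, 10 had 1 array whose gap to the nearest other was beyond Dixon's critical value, and chance gives about 1 in 20 groups. The cortex sham array 3 at 2 weeks had 93.0% of probes above background and a summed member signal of 32.7 times the array median, the largest gaps of this kind, and the members' TBI minus sham difference at 2 weeks is given above with and without it. Other arrays stood apart in their share of probes above background, namely cortex TBI array 2 at 6 months (59.7%), hippocampus sham array 3 at 2 weeks (46.5%), hippocampus naive array 2 at 3 months (57.0%) and hippocampus TBI array 1 at 3 months (41.5%). Hippocampus sham array 3 at 3 months had a median member level of 0.213.

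Among single genes, Cdk1 stood apart on cortex naive array 1 at 24 hr (1.72) and on cortex TBI array 4 at 6 months (1.18), and Pcna on cortex sham array 4 at 6 months (5.80). Without cortex TBI array 2 at 6 months the calls were Prc1 and Cdca3.

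The difference between TBI and sham itself differed between tissues at 24 hr for Kif23, by 1.68, and between 24 hr and 2 weeks in the hippocampus for 22 members, from Pcna (-0.96) to Mki67 (-2.87). Both rest on tests of the difference over probes shared by the array designs. In both, the hippocampal sham and TBI arrays at 24 hr lay on different slides and scan days.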

How the results depend on the processing

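In the hippocampus at 24 hr TBI minus sham called 22 members. It called 0 with no filter on dim probes and 7 with the replicate block (the numbers are shared by 2 pairs with correlations of -0.256 to 0.0503). Counts with 1 TBI array left out are given above. The median over members minus the median over all probes was 1.00 with normexp in place of 1.87. In the cortex at 24 hr 1 was called. There the 75th percentile, quantile normalization, the authors' table, a filter in both groups, the replicate block and a fit of sham and TBI arrays alone gave 0, normexp 24, no filter 12, and 1 array left out 0 to 15. The cause of each was not tested. In the cortex at 6 months 1 was called, and 2 with quantile, normexp, sham and TBI arrays alone, or 1 array left out, and 0 with the filter in both groups, which drops Prc1. The median over members minus that over all probes moved with normexp in the cortex at 6 months (0.039 in place of 0.21). It moved with no filter in the hippocampus at 12 months (-0.23 in place of -0.10). In the cortex at 2 weeks it was 0.04, and it moved with quantile (0.78), no filter (0.68) or 1 array left out (-0.22 to 0.51, the latter without sham array 3). There up to 3 members were called with 1 array left out.

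TBI minus naive hippocampus at 12 months reversed, with 1 higher under the 75th percentile and 1 higher under quantile in place of Tk1 lower (0 to 2 with 1 array left out). Against naive the 75th percentile gave 1 for TBI at 2 weeks, 1 for sham at 12 months, and 2 for sham and 1 for TBI at 6 months, and quantile 2 and 1 at 6 months, where 0 were called. With 1 array left out these comparisons gave up to 2, TBI minus sham hippocampus at 2 weeks 1, sham minus naive up to 2 in hippocampi and 3 for cortex at 24 hr, and TBI minus naive cortex at 24 hr 14 to 32. The tissue difference at 24 hr gave 2 with the replicate block and 0 to 1 with 1 array left out, that at 6 months up to 1, and the change to 2 weeks in the hippocampus 8 to 25. Naive tissues gave 2 at 2 weeks under the 75th percentile and under quantile (0 to 2 with 1 array left out), 10 and 9 at 6 months (2 to 10), and 5 under quantile at 12 months (4 to 8). Naive age gave 7 in the cortex (0 to 1) and 6 in the hippocampus (0) under the 75th percentile. The replicate block changed no other call count by over 1.5 times. No called gene changed sign under the alternatives run. Other scalings moved the median of all probes by over 0.1 in 19 comparisons, most in the cortex at 2 weeks (0.95, against -0.39 with the authors' values). Leaving out arrays in comparisons other than TBI minus sham, and other scalings of TBI minus naive, were chosen after seeing the data. The slide as a block was not run, since TBI and sham arrays lay either on different slides or together on 1, where the fit of these arrays alone is the value within the slide.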
